A study of Mus musculus with 13 samples.

Results

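Copines are a family of calcium-dependent phospholipid-binding proteins, and the transcripts of 9 of them, Cpne1 to Cpne9, were followed across excitatory neurons of the mouse claustrum. The 9 genes were all the Cpne entries of the deposited count tables, out of 23427 genes listed in either table, and each was listed in both. The cells were those with at least 1 count of Snap25, a synaptic protein of neurons, and at least 1 count of Slc17a7, the vesicular glutamate transporter of cortical excitatory neurons. Of 1112 harvested cells, 1011 (90.9%) met this rule. The copines were chosen with their levels in these cells already known, so levels by Synpr class are given as a description with no test.

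The cells were picked by hand from the microdissected claustrum of 4 mature male C57BL/6 mice. In 1 mouse, a retrograde virus (rAAV2-retro-CAG-GFP) had been injected into the anterior cingulate cortex to outline the claustrum, and cells were taken blind to GFP (238 kept cells). Fluorescent retrobeads, which travel back along axons from the site of injection, were used in the other 3 mice. They marked neurons that project to the retrosplenial cortex (RSC, 247 kept cells) or to the lateral entorhinal cortex (LEC, 286). A further 240 kept cells of these mice carry the label Unlabeled. The paper counts all cells outside the RSC and LEC groups as blindly selected, so unlabeled is not read as free of beads. The sample titles call the blindly sampled mouse WT (wild type) and state no genotype for the projection mice. The sources used here name no transgene or deletion in any mouse, and a bead label marks only cells whose axons took up beads.

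Copines carry paired C2 domains, which bind membrane lipids when calcium rises, and an A domain through which they bind other proteins. They are thought to move from the cytosol to the plasma membrane on calcium entry and to take partner proteins with them. Cpne6, also called N-copine, is the best studied member in neurons, where it has been linked to dendritic spines. Cpne1, Cpne2 and Cpne3 are found in many tissues.

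Synpr encodes synaptoporin, a synaptic vesicle protein that marks core-like claustrum neurons. Cells with Synpr at or above 200 CPM (counts per 1000000 counts of genes in the cell) are called Synpr-high here (438 cells) and all others Synpr-lower (573 cells). The share of Synpr-high cells was 47.5% in the blindly sampled mouse and between 39.3% and 45.3% in the projection mice. Few cells lay near the threshold, with 13 cells at 100 to 200 CPM and 8 cells at 200 to 400 CPM. Within Synpr-lower cells, 339 were Slc30a3-high (at least 50 CPM of Slc30a3, the vesicular zinc transporter, and above the layer 6 marker sum). A further 118 were layer 6 marker-high (a summed CPM of at least 50 over Ctgf, Sla, Foxp2, Lsp1, Rprm and Syt6, and not below Slc30a3), and 116 were neither. These classes are ranges of marker level, and 37 Synpr-lower cells had the larger of the Slc30a3 level and the layer 6 marker sum between 25 and 100 CPM.

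Kept cells of the blindly sampled mouse had a median of 26023 counts, and those of the projection mice medians of 138535 to 154262. Per the study's methods, 3 plates were sequenced on a different flowcell from the other 10, with a longer second read. The methods do not name these plates. The blindly sampled mouse had 3 plates and the projection mice 10, so that mouse and its sequencing run may not be told apart. No cell name was shared between the tables and no cells held identical counts. RSC, LEC and unlabeled cells sat on separate plates in each mouse, except on plate 12 of projection mouse 3, which held 34 RSC and 44 LEC kept cells. All 4 excitatory markers examined had counts in both Synpr classes and both labels. Of the inhibitory markers, 5 of 6 were listed, and their summed level ranged from 6.85 to 199 CPM over the mice in RSC cells and from 0.161 to 0.882 CPM in LEC cells, with Gad1 and Gad2 at 0 in LEC cells. The 4 oligodendrocyte markers summed to 37.7 to 824 CPM in RSC cells and 108 to 347 CPM in LEC cells, and the 3 astrocyte markers to at most 0.102 CPM in RSC cells, where Aqp4 was at 0, and 2.65 CPM in LEC cells. The part of these transcripts in the results below was not tested.

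The promoters of 3 copines whose levels separated Synpr-high from Synpr-lower cells are shown first, as the 250 bases before each listed start, from RefSeq (GRCm38.p6), 5′ to 3′ on the strand of the gene, with CG pairs in capitals. Cpne4 had 2 listed starts, at chr9:104569405-104569654 (plus strand, 13 CG pairs) and chr9:104587808-104588057 (plus strand, 1 CG pair). The others were Cpne8 at chr15:90679389-90679638 (minus strand, 28 CG pairs) and Cpne9 at chr6:113282057-113282306 (plus strand, 7 CG pairs).
Cpne4, first start: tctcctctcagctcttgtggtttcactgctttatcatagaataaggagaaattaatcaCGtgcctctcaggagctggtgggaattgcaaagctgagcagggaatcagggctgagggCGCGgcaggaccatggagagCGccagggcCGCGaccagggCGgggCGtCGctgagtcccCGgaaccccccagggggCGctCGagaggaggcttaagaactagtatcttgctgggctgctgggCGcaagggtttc
Cpne4, second start: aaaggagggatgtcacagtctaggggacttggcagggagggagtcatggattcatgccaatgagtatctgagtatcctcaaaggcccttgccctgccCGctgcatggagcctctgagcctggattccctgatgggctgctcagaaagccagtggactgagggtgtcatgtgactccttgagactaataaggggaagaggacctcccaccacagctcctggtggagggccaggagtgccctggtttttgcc
Cpne8: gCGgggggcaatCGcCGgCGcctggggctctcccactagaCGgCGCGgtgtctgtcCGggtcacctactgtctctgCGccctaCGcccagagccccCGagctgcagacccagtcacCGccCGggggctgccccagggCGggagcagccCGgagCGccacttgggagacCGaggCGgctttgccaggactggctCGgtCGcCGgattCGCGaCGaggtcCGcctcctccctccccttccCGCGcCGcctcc
Cpne9: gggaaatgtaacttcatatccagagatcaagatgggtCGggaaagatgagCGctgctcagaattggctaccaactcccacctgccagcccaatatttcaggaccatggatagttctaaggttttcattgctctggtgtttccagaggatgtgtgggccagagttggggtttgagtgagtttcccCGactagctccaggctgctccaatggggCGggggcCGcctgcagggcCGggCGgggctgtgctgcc
The median over 32851 promoters of this length was 6 CG pairs. The windows of Cpne8 (28), Cpne9 (7) and the first start of Cpne4 (13) were above it, and that of the second start of Cpne4 (1) was below it. No limit for a CG-rich or a CG-poor promoter was set. Promoters of Cpne5 (27 CG pairs), Cpne2 (32) and Cpne1 (11) were also listed, and 6 of the 9 copines had an entry. The letters AAGGTCA or TGACCTT, the core of an Nr4a-type nuclear receptor site on either strand, were in none of the 7 copine promoters and in 4.08% of all promoters. This describes these windows only.

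Cpne4, Cpne9, Cpne8 and Cpne5 were higher in Synpr-high than in Synpr-lower cells in every mouse, and for these 4 copines the levels of the 4 mice did not overlap between classes. Over the 13641 genes that passed the filter on low counts, all 9 copines among them, 15.5% did not overlap in either direction, 7.9% with Synpr-high cells higher and 7.64% with Synpr-high cells lower. Synpr is part of the rule that chose what to describe, so nothing is read from this share. Levels are CPM after TMM scaling (the trimmed mean of M-values, which adjusts library sizes) on counts summed over the cells of a class in a mouse. Because the libraries tag transcripts near their ends, the level of 1 copine is not set against that of another.

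Cpne4, a copine found in neurons including retinal ganglion cells, had 424, 404, 283 and 414 CPM in Synpr-high cells of the blindly sampled mouse and projection mice 1, 2 and 3. In Synpr-lower cells it had 26.6, 22.9, 19.9 and 8.04 CPM. The lowest Synpr-high level, in projection mouse 2, was thus far above the highest Synpr-lower level. The means were 381 ± 66.2 and 19.3 ± 8.01 CPM (SD, n = 4), a ratio of 21.3-fold with a log2 difference of 4.41 ± 0.86.

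Cpne9, a little-studied member, had 151, 108, 114 and 107 CPM in Synpr-high cells of the same mice in the same order, against 21.2, 9.71, 3.91 and 4.41 CPM in Synpr-lower cells. The blindly sampled mouse was highest in both classes. The means were 120 ± 20.8 and 9.82 ± 8.06 CPM (15.4-fold, log2 difference 3.94 ± 0.96).

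Cpne8 had 42.1, 34.3, 30.9 and 31.2 CPM in Synpr-high cells and 14.1, 3.36, 5.69 and 1.81 CPM in Synpr-lower cells, with the blindly sampled mouse again highest in both. Its means were 34.6 ± 5.2 and 6.23 ± 5.47 CPM (7.31-fold, log2 difference 2.87 ± 1.10). Cpne5 was less restricted. It had 273, 291, 267 and 256 CPM in Synpr-high cells and 172, 158, 138 and 131 CPM in Synpr-lower cells, a ratio of 1.82-fold with a narrow spread over mice (log2 difference 0.86 ± 0.14).

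The other 5 copines overlapped between the classes. Cpne6 had 256, 141, 394 and 316 CPM in Synpr-high cells and 359, 370, 347 and 502 CPM in Synpr-lower cells, lower in Synpr-high cells in 3 of 4 mice (log2 difference -0.59 ± 0.65). Cpne7, known from work on tooth-forming cells, had 43.3 to 58.2 CPM in Synpr-high cells and 42.2 to 90.1 CPM in Synpr-lower cells (log2 difference -0.38 ± 0.29). Its 2 classes lay within 0.04 of each other on the log2 scale in the blindly sampled mouse.

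Cpne1, which binds several signalling proteins, had 13.8 to 23.3 CPM in Synpr-high cells and 9.53 to 19.1 CPM in Synpr-lower cells (log2 difference 0.47 ± 0.61). GENCODE M21 places exons of Rbm12 over those of Cpne1 on the same strand, so reads of these genes may not be told apart. Cpne2 had 0.976 to 7.48 CPM and 0.854 to 8.50 CPM in the classes, and Cpne3, linked to cell migration and ErbB2, had 1.25 to 7.61 CPM and 2.12 to 6.82 CPM. In both classes Cpne2 was highest and Cpne3 lowest in the blindly sampled mouse, so for these sparse members the mice differed more than the classes did. The sequencing run may differ with that mouse, and its part was not tested.

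**Figure D1:**
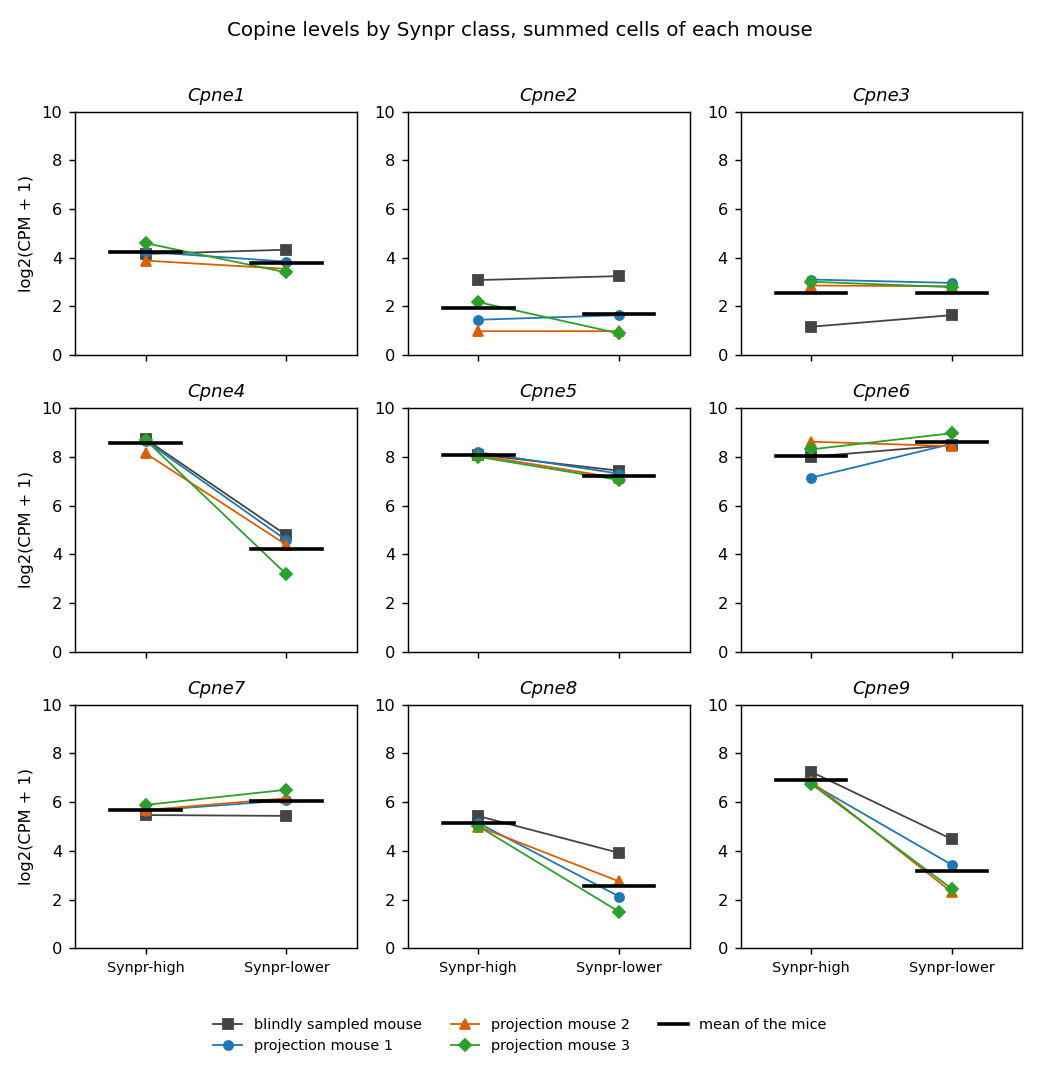
Levels of the 9 copines as log2(CPM + 1) in the summed Synpr-high and Synpr-lower cells of each of 4 mice, with lines joining the classes of a mouse and black bars at the mean of the log2 values. Cpne4, Cpne9, Cpne8 and Cpne5 fall from left to right in all 4 mice with no overlap, while Cpne1, Cpne2, Cpne3, Cpne6 and Cpne7 overlap.

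Detection in single cells was compared after each cell was thinned to 20000 counts, which 927 cells reached and 84 did not (67 of these from the blindly sampled mouse). Intervals below are exact Clopper-Pearson 95% intervals and cover counting error only. Cpne4 had a count in 370 of 406 Synpr-high cells (91.1%, interval 87.9% to 93.7%) and in 75 of 521 Synpr-lower cells (14.4%, 11.5% to 17.7%). Over the mice, the Synpr-high share ranged from 87.1% to 95.4% and the Synpr-lower share from 7.3% to 24.4%, so no mouse departed from the pattern. Without thinning the shares were 95.2% and 22%.

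Cpne9 had a count in 77.8% (73.5% to 81.8%) of thinned Synpr-high cells and 8.4% (6.2% to 11.2%) of Synpr-lower cells, and without thinning in 93.8% and 15.2%. Cpne8 was found in 26.8% (22.6% to 31.4%) and 4.4% (2.8% to 6.6%), and without thinning in 36.3% and 5.9%. It was thus absent from the counts of most Synpr-high cells. The median Synpr-high cell had 337 CPM of Cpne4 and 107 CPM of Cpne9 but 0 of Cpne8, whose 90th percentile was 131 CPM.

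Cpne4 and Cpne9 were found together in 72.2% of thinned Synpr-high cells, and neither was found in 3.2%. Over the mice the joint share ran from 68.5% to 75.9%. Cpne6 did not exclude Cpne4, since both were found in 65.0% of thinned Synpr-high cells. Cpne5 had a count in 91.1% of thinned Synpr-high and 60.3% of Synpr-lower cells, Cpne6 in 72.7% and 81.6%, and Cpne7 in 40.6% and 39.7%.

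Along the range of Synpr, pooled over mice, Cpne4 was 16.3 CPM in cells under 25 CPM of Synpr, 30.0 CPM at 100 to 200, 63.2 CPM at 200 to 400, 297 CPM at 400 to 1000 and 479 CPM at 2000 and over. The 13 cells just under the threshold and the 8 just above it thus lay between the main groups for Cpne4. Cpne9 was 18.5 and 35.8 CPM in these ranges and Cpne8 1.91 and 0 CPM. Cpne6 was 363 CPM in cells at 400 to 1000 of Synpr and 201 CPM at 2000 and over. By mouse, it was 331 and 162 CPM in these ranges in the blindly sampled mouse (14 and 37 cells), 138 and 81.4 CPM in projection mouse 1 (7 and 35), 290 and 269 CPM in mouse 2 (13 and 16) and 574 and 273 CPM in mouse 3 (11 and 57). It was thus lower at 2000 and over in 4 of 4 mice, but in projection mice 1 and 2 the level between them, at 1000 to 2000, was the highest of the 3 (183 and 435 CPM).

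**Figure D2:**
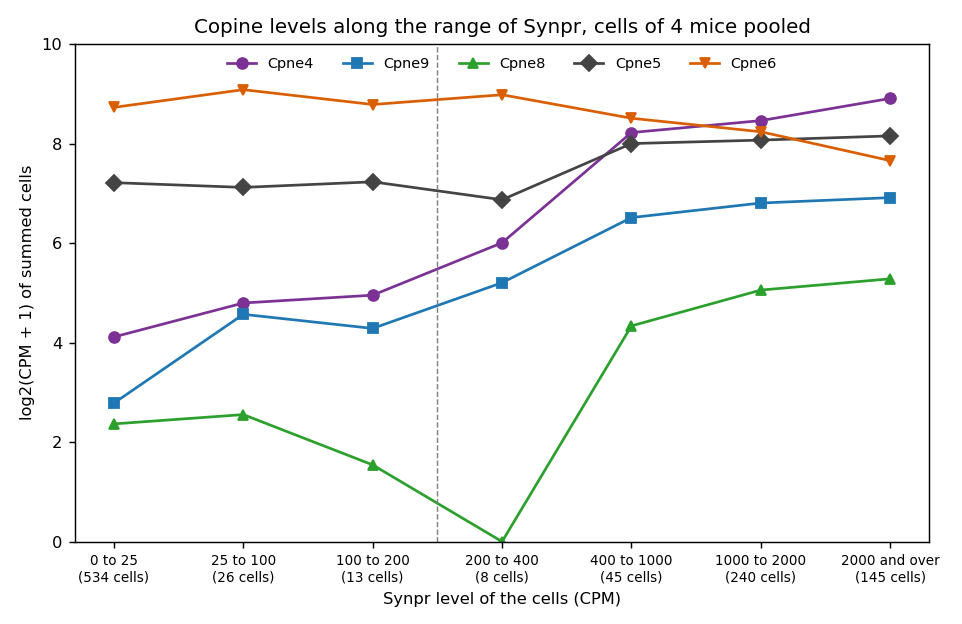
Levels of 5 copines as log2(CPM + 1) in cells summed over 4 mice, by the Synpr level of the cells in CPM, with the number of cells in each range under the axis and a dashed line at the threshold of 200 CPM. Cpne4, Cpne9 and Cpne8 reach their upper levels from 400 CPM of Synpr on, and the range of 200 to 400 CPM holds 8 cells.

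The Synpr-lower cells were not alike in their copines. Between Slc30a3-high and layer 6 marker-high cells, 5 of the 9 copines did not overlap over the mice: Cpne5, Cpne6, Cpne7 and Cpne9 were higher in Slc30a3-high cells and Cpne8 was higher in layer 6 marker-high cells. Over 12342 genes, 10.1% did not overlap in this comparison, 6.46% with Slc30a3-high cells higher and 3.62% with layer 6 marker-high cells higher. Against Synpr-high cells, Cpne4, Cpne8 and Cpne9 were lower without overlap in Slc30a3-high cells (8.26% of genes in this direction, 15.4% in either), and Cpne4, Cpne5, Cpne7, Cpne8 and Cpne9 in layer 6 marker-high cells (10.3% and 16.9%). These levels too are a description with no test.

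Cpne5 was low in layer 6 marker-high cells, with 4.44, 27.1, 4.83 and 22.5 CPM in the blindly sampled mouse and projection mice 1, 2 and 3. In Slc30a3-high cells of these mice it had 280, 208, 169 and 145 CPM. The means were 14.7 ± 11.8 CPM in layer 6 marker-high cells, 201 ± 59.0 CPM in Slc30a3-high cells and 275 ± 15.2 CPM in Synpr-high cells. Synpr-high and Slc30a3-high cells overlapped (1.37-fold), and the layer 6 marker-high mean was 18.7-fold below that of Synpr-high cells. In single cells, Cpne5 had a count in 21 of 118 layer 6 marker-high cells without thinning (17.8%) and in 8.1% of thinned ones.

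Cpne6 and Cpne7 were also low in layer 6 marker-high cells. Cpne6 had 43.5, 89.97, 38.0 and 202 CPM there, against 422, 371, 435 and 556 CPM in Slc30a3-high cells, a 4.78-fold ratio of means with no overlap. In Slc30a3-high cells Cpne6 was above the Synpr-high level of the same mouse in 4 of 4 mice (446 ± 78.4 against 280 ± 108 CPM), although the groups overlapped. Cpne7 had 2.66, 23.3, 12.2 and 36.7 CPM in layer 6 marker-high cells and 43.4, 56.3, 84.1 and 100.3 CPM in Slc30a3-high cells (3.79-fold).

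Cpne8 had the opposite order. In Slc30a3-high cells it had 3.86 and 1.17 CPM in the blindly sampled mouse and projection mouse 1 and no count in projection mice 2 and 3, where 3 counts would have given 0.208 and 0.157 CPM. In layer 6 marker-high cells it had 27.5, 6.48, 27.4 and 6.97 CPM, every mouse above every Slc30a3-high level and below every Synpr-high level. Without thinning, these levels came from 9 of 32, 4 of 39, 4 of 22 and 1 of 25 cells. All 22 counts of projection mouse 3 thus lay in 1 cell. In thinned cells, Cpne8 was found in 2 of 311 Slc30a3-high cells (0.6%, 0.1% to 2.3%) and 14 of 111 layer 6 marker-high cells (12.6%, 7.1% to 20.3%).

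Cpne9 was lowest in layer 6 marker-high cells, with 0, 1.92, 1.93 and 1.27 CPM and 18 counts in all, against 29.0, 6.79, 2.94 and 5.93 CPM in Slc30a3-high cells. Cpne4 did not separate these groups. It had 20.1 ± 8.68 CPM in Slc30a3-high cells, 25.6 ± 14.3 CPM in layer 6 marker-high cells and 12.6 ± 4.63 CPM in cells of neither class, against 385 ± 67.3 CPM in Synpr-high cells. Cpne1, Cpne2 and Cpne3 overlapped between all neighbours in the order of these groups.

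Cells of neither class resembled Slc30a3-high cells in Cpne5 (147 ± 29.2 CPM), Cpne6 (540 ± 194 CPM) and Cpne7 (99.5 ± 22.8 CPM), with overlap in each. For Cpne8 (11.6 ± 9.14 CPM) they overlapped layer 6 marker-high cells and not Slc30a3-high cells. Over the 4 groups, the mean level in Synpr-high cells was above that of the next group by 15.0-fold for Cpne4, 7.13-fold for Cpne9 and 2.05-fold for Cpne8. Cpne5, Cpne6 and Cpne7 had their lowest mean in layer 6 marker-high cells. Cpne2 and Cpne3 had too few counts to be placed, with a count in 4 and 11 of 311 thinned Slc30a3-high cells.

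**Figure D3:**
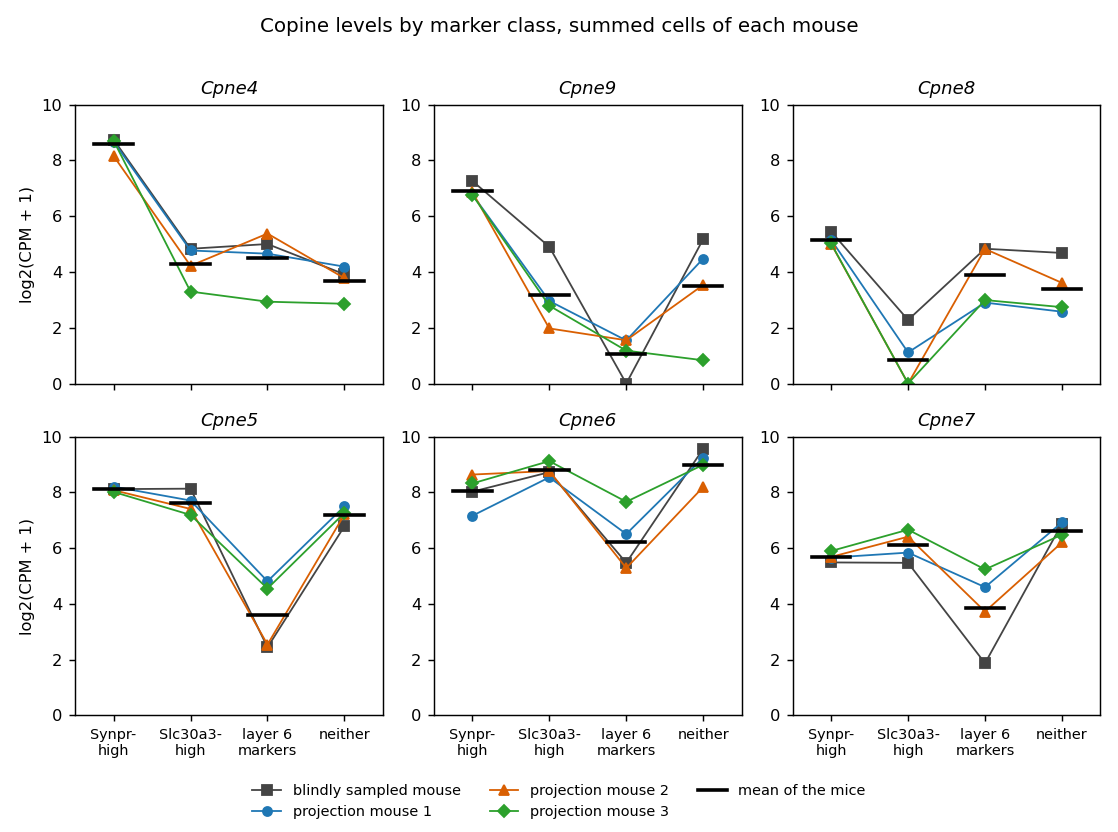
Levels of 6 copines as log2(CPM + 1) in 4 marker classes of each of 4 mice, with lines joining the classes of a mouse and black bars at the mean of the log2 values. Cpne4 and Cpne9 stand high only in the Synpr-high class, Cpne8 dips in the Slc30a3-high class, and Cpne5, Cpne6 and Cpne7 dip in the layer 6 marker class.

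The retrobead labels allowed cells that project to the RSC and to the LEC to be compared. The copines were chosen with their levels by label known, so a call is no independent support for a difference or its direction. For the same reason, nothing is read from the number of copines called beside the share of all genes. Synpr itself was 1621 ± 287 CPM in RSC cells and 348 ± 210 CPM in LEC cells (SD, n = 3, mean log2 ratio 2.36), and its part in the copine differences was not tested. Within a Synpr class the labels are compared further on. Cpne4, Cpne9 and Cpne8 were higher in RSC cells, and no copine passed the test in the other direction. Counts were summed per mouse and label and tested with edgeR's quasi-likelihood test over 13242 genes with Benjamini-Hochberg adjustment, with 3 mice per label. The test called 3 of the 9 copines, against 3.83% of all genes (1.93% with RSC higher and 1.9% with LEC higher).

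Cpne4 had 414, 287 and 425 CPM in RSC cells of projection mice 1, 2 and 3, and 107, 63.2 and 59.2 CPM in LEC cells. Every RSC level was above every LEC level, and the share of all genes with such a gap between labels was not counted. The log2 ratio of RSC over LEC was 2.30 (SE 0.25, 4.93-fold, edgeR adjusted p = 0.0035), higher in 3 of 3 mice.

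Cpne9 had 109.5, 109.6 and 99.96 CPM in RSC cells and 32.7, 15.3 and 18.9 CPM in LEC cells, again without overlap. Its log2 ratio was 2.26 (SE 0.27, 4.78-fold, edgeR adjusted p = 0.00486). Cpne8 had 39.5, 36.9 and 29.5 CPM in RSC cells and 7.12, 0.968 and 4.71 CPM in LEC cells, where projection mouse 2 gave 12 counts. Its log2 ratio was 3.04 (SE 0.57, 8.22-fold, edgeR adjusted p = 0.0229).

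On average, unlabeled cells lay between the labels for these genes, with 94.1, 79.6 and 150 CPM of Cpne4, 27.3, 38.3 and 51.0 CPM of Cpne9 and 7.80, 16.6 and 16.7 CPM of Cpne8. In projection mouse 1, unlabeled cells were below LEC cells for Cpne4 and Cpne9. The labels also differed in their share of Synpr-high cells, which was 81.3%, 80% and 92.9% of RSC cells, 22.5%, 14.5% and 12.3% of LEC cells and 22.5%, 28.4% and 32.6% of unlabeled cells in mice 1, 2 and 3.

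Cpne5 was higher in RSC cells in 3 of 3 mice, with 301, 267 and 266 CPM against 225, 160 and 164 CPM in LEC cells, but missed the threshold (log2 ratio 0.61, SE 0.15, edgeR adjusted p = 0.0568). With the mouse as a block, its edgeR adjusted p was 0.0355, which passed, as did Cpne4, Cpne8 and Cpne9 (3.2% of all genes called). DESeq2 called 5 of the 9 copines, Cpne5 and Cpne7 beside these 3, and 8.47% of all genes. Cpne6 had 155, 333 and 273 CPM in RSC cells and 324, 419 and 507 CPM in LEC cells, lower in RSC cells in 3 of 3 mice without passing (log2 ratio -0.71, SE 0.26, edgeR adjusted p = 0.213). Cpne7 had 42.7, 46.6 and 51.0 CPM in RSC cells and 69.9, 57.5 and 101 CPM in LEC cells (log2 ratio -0.70, SE 0.22, edgeR adjusted p = 0.141).

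Cpne1 (log2 ratio 0.26, SE 0.42), Cpne2 (-0.51, SE 0.86) and Cpne3 (0.66, SE 0.68) did not pass, with edgeR adjusted p between 0.729 and 0.859. Their SE allowed for differences of the size seen for Cpne5, so these data do not show that the labels were alike.

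**Figure D4:**
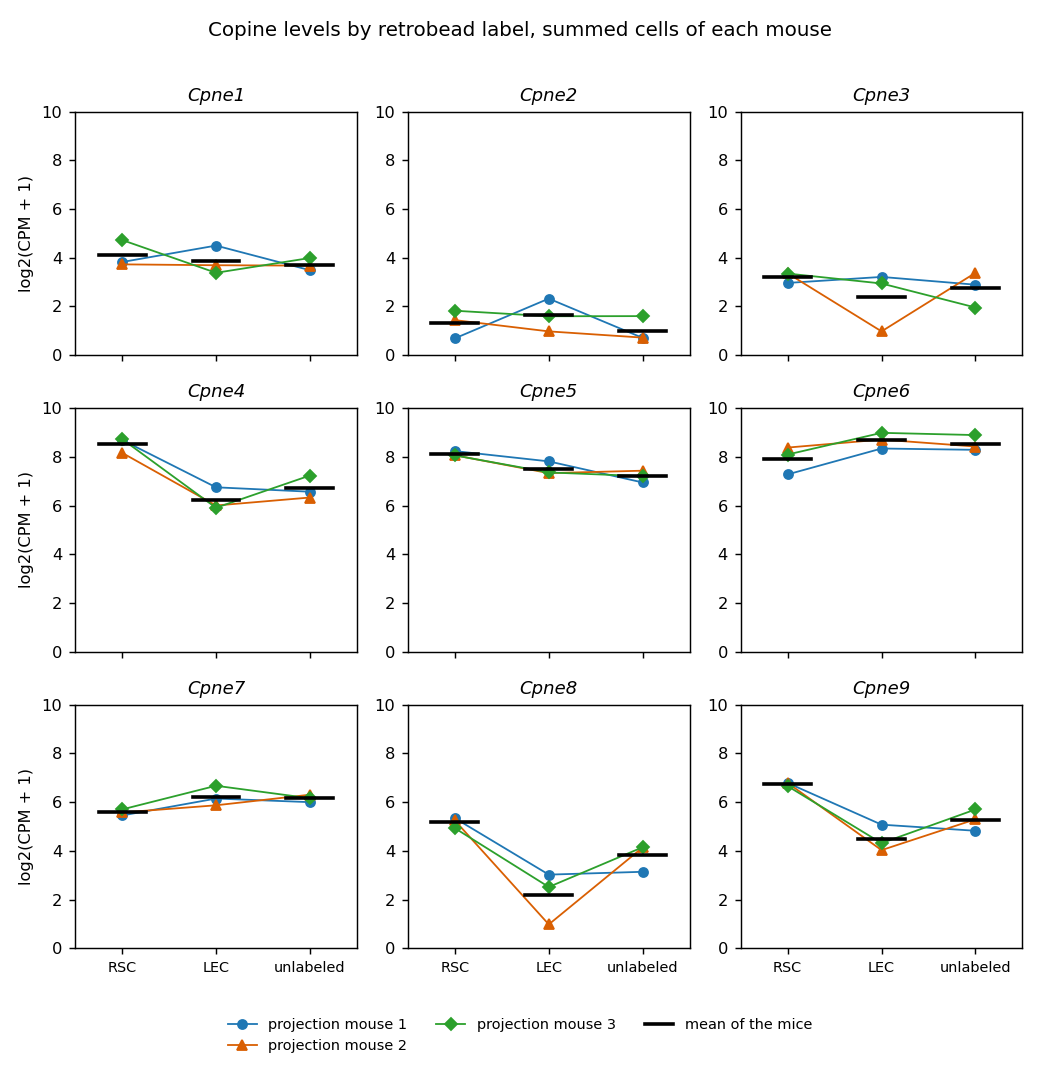
Levels of the 9 copines as log2(CPM + 1) in RSC, LEC and unlabeled cells summed for each of 3 projection mice, with lines joining the labels of a mouse and black bars at the mean of the log2 values. RSC cells are above LEC cells in all 3 mice for Cpne4, Cpne5, Cpne8 and Cpne9 and below them in all 3 for Cpne6 and Cpne7.

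Label and plate cannot be told apart in mice 1 and 2, or outside plate 12 in mouse 3. Levels within plate 12 were plain CPM with no TMM scaling, unlike the ratios over mice. On this plate, RSC cells had 436 CPM of Cpne4 and LEC cells 98.0 CPM (3219 and 874 counts), a log2 ratio of 2.15. The ratios within this plate were 1.53 for Cpne9 (706 and 296 counts), 4.25 for Cpne8 (157 and 10 counts), 0.34 for Cpne5, -1.17 for Cpne6 and -0.73 for Cpne7. Of the cells on this plate, 29 of 34 RSC and 10 of 44 LEC cells were Synpr-high. The cells of plate 12 are part of the 3-mouse ratios, and the values within it have no replicate and no test. Without plate 12, the edgeR adjusted p was 0.0195 for Cpne4, 0.0238 for Cpne9 and 0.0462 for Cpne8 (2.78% of all genes called). With the mouse as a block as well it was 0.0354, 0.035 and 0.0737 (1.34% called), so Cpne8 did not pass there.

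The calls rested on 3 mice. Without projection mouse 3, the edgeR adjusted p was 0.0768 for Cpne4, 0.11 for Cpne9 and 0.235 for Cpne8, with log2 ratios of 2.05, 2.19 and 3.23. Without projection mouse 2, it was 0.0492 for Cpne4, 0.0717 for Cpne9 and 0.0721 for Cpne8, and without projection mouse 1 all 3 genes passed.

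Among Synpr-high cells alone, RSC and LEC cells were compared to ask whether a copine differed by label at the same Synpr class. None of the 9 copines was called or had an unadjusted p under 0.05 in edgeR (0 called by DESeq2), and neither was any other of the 12410 genes (0%), with 508 genes at an unadjusted p under 0.05 in edgeR and 21 called by DESeq2. Cpne4 had 469, 353 and 444 CPM in Synpr-high RSC cells and 307, 300.0 and 342 CPM in Synpr-high LEC cells, higher in 3 of 3 mice (log2 ratio 0.41, SE 0.31, edgeR adjusted p = 1). The LEC sums held 18, 11 and 16 cells. The labels were not matched for the level of Synpr within this class. Synpr had 1938, 1649 and 1964 CPM in Synpr-high RSC cells and 1922, 1245 and 1450 CPM in Synpr-high LEC cells. Its part in the copine ratios was not tested.

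Cpne8 had 44.6, 41.8 and 31.0 CPM in Synpr-high RSC cells and 19.2, 5.55 and 23.5 CPM in Synpr-high LEC cells (log2 ratio 1.27, SE 1.05). RSC cells were higher in every mouse, and the LEC level of projection mouse 2 rested on 12 counts. Cpne9 had 124, 136 and 105 CPM against 75.7, 85.5 and 106 CPM (log2 ratio 0.45, SE 0.73), and Cpne5 303, 307 and 262 CPM against 294, 220 and 248.7 CPM (log2 ratio 0.19, SE 0.28). All 4 ratios were smaller than in all kept cells, and the SE were larger for all of them.

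Among Synpr-lower cells, Cpne4 was higher in RSC cells, with 53.9, 37.4 and 44.8 CPM against 19.3, 13.3 and 5.84 CPM in LEC cells. Its log2 ratio was 1.88 (SE 0.34, 3.68-fold, edgeR adjusted p = 0.0477), 1 of 24 genes called of 12410 (0.193%). With the mouse as a block the log2 ratio was 1.92 (edgeR adjusted p = 0.0628) and without plate 12 it was 1.80 (0.0782), so the call did not hold there. The RSC sums came from 34 cells (12, 14 and 8).

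Cpne4 had a count in 15 of these 34 RSC cells (44.1%, interval 27.2% to 62.1%) and in 40 of 241 Synpr-lower LEC cells (16.6%, 12.1% to 21.9%). Of 196 counts in RSC cells, 39 came from 1 cell. Synpr itself, although under the threshold, was higher in the Synpr-lower RSC cells, with a count in 64.7% of them against 24.5% of LEC cells and levels of 14.7, 25.6 and 9.66 CPM against 6.24, 2.63 and 5.50 CPM. Its part in the Cpne4 difference was not tested.

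The other copines were not called in Synpr-lower cells. Cpne8 had a log2 ratio of 3.05 (SE 1.18, edgeR adjusted p = 0.329), with 28 of the 38 counts in RSC cells from 1 cell. Cpne9 had a ratio of 0.49 (SE 0.85) and Cpne5 of 0.57 (SE 0.29). The difference between the classes in the ratio of RSC over LEC was -1.47 on the log2 scale for Cpne4 (SE 0.45, edgeR adjusted p = 0.345) and was called for 0 of the 9 copines, against 0.0645% of all genes. In edgeR 2 copines, Cpne4 and Cpne7, had an unadjusted p under 0.05 for this difference, against 1031 of all 12410 genes. DESeq2 called 0 copines, against 116 of all genes.

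**Figure D5:**
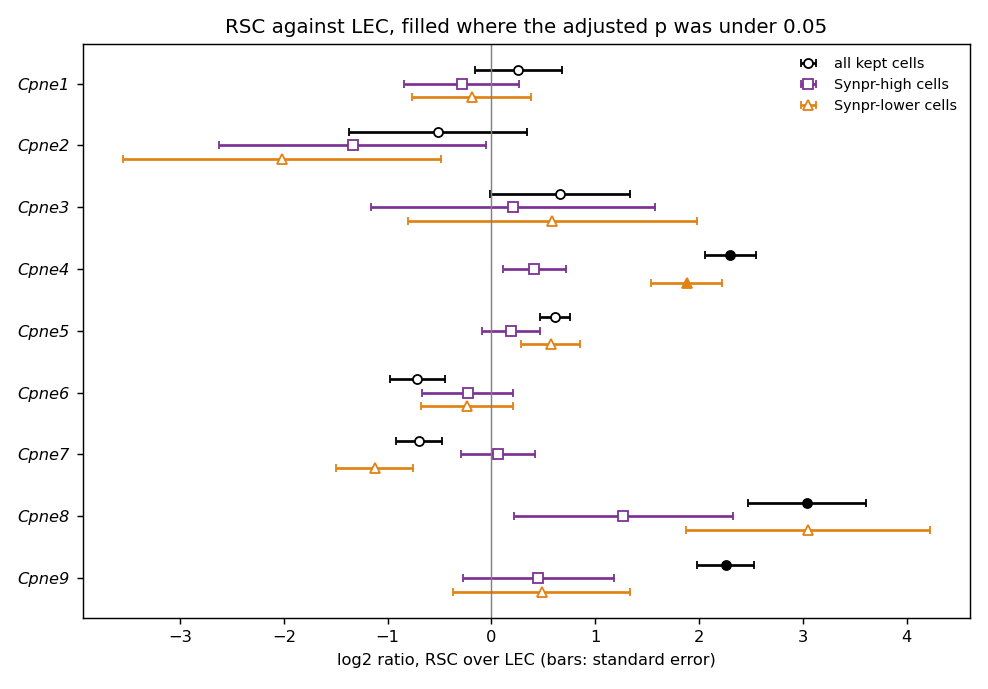
Log2 ratio of RSC over LEC for the 9 copines in all kept cells (circles), Synpr-high cells (squares) and Synpr-lower cells (triangles). Bars are at the standard error derived from edgeR's F statistic, and symbols are filled where the edgeR adjusted p was under 0.05. The filled symbols are Cpne4, Cpne8 and Cpne9 in all kept cells and Cpne4 in Synpr-lower cells.

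Other calcium-dependent membrane and sensor proteins were set beside the copines in the RSC and LEC comparison. The median log2 ratio was 0.61 over the 9 copines and 0.00 over all genes tested. The share of all genes called was 3.83% (1.93% with RSC higher and 1.9% with LEC higher), as given above, and each list below is set beside it as a description. Of the 13242 genes, 2094 had an unadjusted edgeR p under 0.05, and DESeq2 called 8.47%. Of 7 annexins tested, a second family that binds membrane lipids with calcium, edgeR called 0, with a median of 0.13. For 3 of them, Anxa2, Anxa4 and Anxa7, which were named after their values were seen, the unadjusted edgeR p was under 0.05, and DESeq2 called 1 (Anxa7). Of 9 proteins reported to bind copines, edgeR called 0, with 0 at an unadjusted p under 0.05, 0 called by DESeq2 and a median of 0.02.

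Of 25 other C2-domain proteins tested, 1 was higher in RSC cells and 3 in LEC cells (16% called, against 3.83% of all genes, median 0.10). Syt1, the calcium sensor of fast vesicle release, was higher in RSC cells (log2 ratio 0.45, SE 0.09, edgeR adjusted p = 0.037), with 2955 against 2176 CPM. Syt13 (-0.74) and Syt17 (-2.33) were higher in LEC cells, and Unc13c, a vesicle priming protein, had 0.102 CPM in RSC cells and 7.26 CPM in LEC cells.

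Of 16 neuronal calcium sensors tested, 3 were higher in RSC cells and 4 in LEC cells (43.8% called, against 3.83% of all genes, median 0.01). Of the 7 called, the 4 with the largest change were higher in LEC cells: Necab2 (log2 ratio -4.80), Necab1 (-2.98), Hpcal1 (-1.39) and Hpcal4 (-0.83). Necab1 had 6.89, 7.56 and 10.1 CPM in RSC cells and 69.7, 62.8 and 63.2 CPM in LEC cells. The 3 that were higher in RSC cells, named here after their values were seen, were Ncald (log2 ratio 0.79, SE 0.14), Hpca (0.75, SE 0.14) and Vsnl1 (0.59, SE 0.12), with edgeR adjusted p of 0.017, 0.023 and 0.037. Hpca, which encodes hippocalcin, had 2111, 2616 and 2886 CPM in RSC cells and 1670, 1646 and 1222 CPM in LEC cells.

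The genes whose levels ran most like a copine were taken by Pearson correlation of log2(CPM + 1) over 20 sums of mouse, label and Synpr class, which share mice, plates and depth, among 15298 genes. For Cpne4 these were Synpr (r = 0.97), Cdh8 (0.96), a cadherin, and 1500009L16Rik (0.96). Cpne9 ranked 40th for Cpne4 (0.91) and Cpne8 237th (0.77). By Spearman correlation, Cpne9 ranked 17th (0.87) and Cpne8 19th (0.86) for Cpne4. For Cpne9 they were Rbms1 (0.95), Synpr (0.95) and Kcnv1 (0.94), a modifier of potassium channels. Cpne4 ranked 25th (0.91).

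For Cpne5 the first genes were Rab2a (0.89), Cdkn1a (0.88) and Cck (0.87), and Cck, a neuropeptide, had 5870 ± 509 CPM in Synpr-high and 4004 ± 298 CPM in Synpr-lower cells. For Cpne6 they were Serpina3n (0.78), Atp6v1a (0.73) and Nelf (0.73). The correlation of Cpne6 with Cpne4 was -0.47 and with Cpne7 0.43. These are descriptions over sums that are not independent, and most sums differ by Synpr class.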

How the data were processed

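Single-cell RNA sequencing of 1112 hand-picked cells from 13 plates was analysed. The authors deposited raw counts per gene and cell, with a table for the blind harvest and another for the 3 mice with retrobeads, and other tables of text labels that give the mouse and projection label of each cell. Per the study's methods, reads were tagged to cell barcodes and molecular identifiers and aligned with STAR. The labels name the build NCBIM37 and the tool Seurat. The annotation and the use of strand are not given in the sources used here, nor whether a count is a read or an identifier. ERCC spike-ins were left out. The tables shared 16575 genes, and a gene listed in only 1 table was taken as 0 in the other.

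Cells without a count of Snap25 or of Slc17a7 were dropped, as in the study. Counts were summed per mouse and group (at least 5 cells), since cells are not replicates, and tested in edgeR 4.0.16 (R 4.3.3; TMM, filterByExpr, quasi-likelihood F test, Benjamini-Hochberg over all genes tested, threshold 0.05). DESeq2 1.42.0 was an alternative, as were other scaling, filters, thresholds of 100 and 500 CPM for Synpr, leaving out mice and a block for the mouse. The SE given with an edgeR ratio is the size of the log2 ratio divided by the square root of the F statistic. It is imprecise where the ratio is near 0. The code was tested on simulated data. Each mouse gave both an RSC and a LEC sum, which pairs them. Their deviations from the label means correlated at 0.04 to 0.07 within a mouse and at -0.09 to 0.04 between mice. Deviations from a label mean cancel over the mice, which ties these correlations to each other. The strength of the pairing is thus not read from them. For shares, cells were thinned to 20000 counts with the Synpr class kept from the full counts. Doublets were not called, since cells were picked singly. Promoters came from RefSeq (GRCm38.p6) and exon overlaps from GENCODE M21, and no coordinate was carried to the deposited tables.

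The copines, the gene lists and the tests were chosen with earlier results of these data known. The genes named were the 9 copines, up to 4 called genes per other list with 1 sign in all mice, by size of change, the 3 genes most like each of Cpne4, Cpne5, Cpne6 and Cpne9, and the class markers. Plate 12 was left out as an alternative chosen after seeing the data. P-values for RSC against LEC in all kept cells rest on the spread between 3 mice. Within Synpr classes, 12 sums of mouse, label and class were fitted together, with no term for the mouse in the main fit. Sums of both classes of a label came from the same mice and plates, so they are not independent.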

Additional observations from a re-analysis of the deposited data

Results flagged for a closer look

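In 4 of 45 groups of 4 mice, 1 mouse stood apart from the others by Dixon's test at the 95% level, which chance does in about 1 in 20 groups. The blindly sampled mouse had 8.50 CPM of Cpne2 in Synpr-lower cells, against 0.854 to 2.12 CPM in the projection mice, and 29.0 CPM of Cpne9 in Slc30a3-high cells, against 2.94 to 6.79 CPM. Projection mouse 2 had 283 CPM of Cpne4 in Synpr-high cells, against 404 to 424 CPM in the others. Projection mouse 3 had 502 CPM of Cpne6 in Synpr-lower cells, against 347 to 370 CPM. Cells of the blindly sampled mouse were shallower (median 26023 counts), and the parts of depth and of the sequencing run were not tested.

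Copines also had counts above the limit of 3 counts (2.56 CPM) in the 74 cells with Snap25 and no count of Slc17a7, which no comparison above used. These cells had a median of 6597 counts and summed levels of 685 CPM of Gad1 and 836 CPM of Gad2, against 9.36 and 7.55 CPM in kept cells. Gad1 had a count in 5 of the 74 cells and Gad2 in 4, so these sums came from few cells. Their copine levels were 277 CPM of Cpne6, 196 CPM of Cpne5, 65.7 CPM of Cpne4, 63.2 CPM of Cpne7, 23.9 CPM of Cpne1, 20.5 CPM of Cpne9, 15.4 CPM of Cpne3 and 10.2 CPM of Cpne8. Counts of Cpne6 lay in 28 cells, of Cpne5 in 21, of Cpne4 in 14, of Cpne7 and Cpne9 in 9 each, of Cpne1 and Cpne8 in 5 each and of Cpne3 in 2. In kept cells Cpne4 had 189 CPM and Cpne9 55.3 CPM.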

How the results depend on the processing

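The 4 copines whose mice did not overlap between Synpr classes were the same under the 8 planned changes of threshold, depth, scaling, cells and genes. Leaving out 1 mouse gave 4 to 6 copines, always with these 4. Between Slc30a3-high and layer 6 marker-high cells, 5 did not overlap at cuts of 50 and 100 CPM, and 5 to 6 without 1 mouse. Leaving out a mouse makes this rule looser, since levels apart over all mice stay apart over fewer. The share of all genes without overlap is given for the main settings only (15.5% between Synpr classes and 10.1% between these groups). Nothing is thus read from the copine counts under the other settings.

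For RSC against LEC, the 507 genes called became 1121 with DESeq2, 790 with thinned cells and 176 without plate 12 and with the mouse as a replicate block (424 with the block alone), and 21 to 344 without 1 mouse. Within Synpr-high cells, 0 became 21 with DESeq2 and 5 with no filter on low counts. Within Synpr-lower cells, 24 became 293 with DESeq2, 61 with no filter, 50 with thinned cells, 15 with the block, 12 without plate 12, 3 with both, and 0 to 7 without 1 mouse. For the difference between classes, 8 became 116 with DESeq2, 24 with no filter, 1 with the block, 0 with the block and without plate 12, 3 with at least 2 counts of Snap25 and Slc17a7, 3 and 4 at Synpr thresholds of 100 and 500 CPM, and 0 to 1 without 1 mouse. The cause was not tested.

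Cpne5 passed under 7 alternatives, Cpne6 with thinned cells and Cpne7 with DESeq2 alone. Cpne4 in Synpr-lower cells lost its call under 8 of 14 alternatives. Without 1 mouse, the log2 ratio ran from -0.39 to 0.84 for Cpne1, from -1.10 to 0.51 for Cpne2 and from -0.16 to 1.80 for Cpne9 in Synpr-lower cells, so these signs turned, none called. By Spearman, 3 of the 12 most alike genes remained (Synpr for Cpne4, Rab2a for Cpne5, Atp6v1a for Cpne6). Cpne2 had no log2 ratio in cells without a projection label, where 1 level was 0, and low counts limit Cpne2 and Cpne3.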
